A study of Homo sapiens with 6 samples.

Results

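The levels of 52 genes of the cell cycle and mitosis were compared in human embryonic stem cells differentiated to definitive endoderm (DE) with or without saracatinib (SAR). The genes were chosen by name, as the listed replication, G1-S, G2-M and cell cycle inhibitor genes, and each matched 1 of the 40396 Ensembl genes in the deposited table. The cells were of the human embryonic stem cell line H1. Saracatinib is known as an inhibitor of Src family kinases, and kinase activity at the dose used was not analysed here. The medium of all 6 samples held activin A (50 ng/ml), and for the first 24 h also CHIR99021 (2.5 µM), which turns on Wnt signaling. The 3 control samples received DMSO and the 3 SAR samples received 0.5 µM SAR throughout, and RNA was taken on day 3. The mRNA of each sample was picked out by its poly(A) tail and made into 1 library, and nothing in the labels says whether the samples of a group came from separate cultures, so p-values measure only the spread between these libraries.

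Progress through the cell cycle is driven by cyclin-dependent kinases (CDKs), which are switched on by cyclins and held back by CDK inhibitors. E2F factors, restrained by the retinoblastoma protein family, drive the genes of DNA replication, and MYBL2 and FOXM1 drive the later genes of mitosis. Pluripotent stem cells are known for a short G1 phase, and G1 lengthens as they differentiate.

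Values are FPKM, fragments scaled by gene length and by the total of counted fragments of the library, after each library was divided by its median ratio to the geometric mean of the libraries. A fold change is the difference in log2(FPKM + 0.1), SAR minus control, and limma was run on all 16371 genes that averaged 0.5 FPKM or more, with Benjamini-Hochberg adjusted p-values. A gene passed the test at an adjusted p under 0.05. The median over all tested genes was 0.12 in the FPKM as deposited and 0.00 after rescaling, so a change is relative to the median gene. Rescaling moved the calls over all genes from 3885 higher and 1563 lower with SAR to 2259 higher and 2538 lower.

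The library totals behind the FPKM, as recovered from the steps of the FPKM, lay between 16681280 and 24419937 reads. Nearly all of these were reads counted in genes, and the number of reads sequenced is not known from them. All 3 SAR totals were smaller than the control totals. A member was covered by between 25 and 13300 reads in a library. Within a group, chi-square per degree of freedom between libraries was 4.39 to 13.9, where sampling noise alone gives about 1. All 10 DE markers passed the test, 5 higher and 5 lower with SAR, against 13.8% of all tested genes higher and 15.5% lower. SOX17 (log2 fold change 0.93 ± 0.19, SE) and FOXA2 (1.32 ± 0.07) were among those that rose. The 5 that fell ran from -1.48 (EOMES) through CER1, GATA4 and GATA6 to -0.63 ± 0.10 (CXCR4), and all but CXCR4 were named after their values were seen. Of 6 pluripotency markers, 1 rose and 1 fell (16.7% each, near the shares of all tested genes). NANOG gave -1.42 ± 0.10, SOX2 0.76 ± 0.18 and POU5F1 0.18 ± 0.14 (adjusted p = 0.369). Of 8 primitive streak and mesoderm markers 4 were tested, of which 2 rose, TBXT by 1.57 ± 0.13 among them, and 1 fell, MIXL1 (-1.48 ± 0.17), named after its values were seen. Of the neural ectoderm markers 2 of 6 were tested and both rose, SIX3 and OTX1, named after their values were seen. Their control means (0.357 and 0.390 FPKM) lay under the minimum of 0.5 FPKM. They reached it through the SAR libraries (means of 1.09 and 0.822 FPKM), so the filter itself favored a rise. PAX6, not tested and at most 0.109 FPKM, was lower with SAR, with 48, 50 and 24 reads in control and 1 in each SAR library. Of 6 trophoblast and extraembryonic markers 1 was tested, and it rose. Of 13 mitochondrially encoded genes 2 rose (15.4%) and 1 fell (7.69%), near or under the shares of all tested genes. Their summed level was 25301 to 30149 FPKM in control and 23864 to 31443 FPKM with SAR. The part of these markers in the changes of cell cycle genes was not tested.

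Promoter sequences were compared first, because replication genes and mitosis genes are known to carry different elements. The windows, from RefSeq on GRCh38.p14, run from 250 bases before to 50 bases after a gene's start, and 41 of the 52 members had at least 1. Both strands were searched for the cell cycle genes homology region (CHR, TTTGAA or TTCGAA), the CCAAT box (CCAAT) and E2F sites (TTTCCCGC, TTTGGCGC, TTTCGCGC or TTTGCCGC). A CHR match lay in the windows of 12 of 17 G2-M and spindle members (70.6%), in 1 of 10 replication members (10.0%) and in 19.5% of the 27305 genes with a window. An E2F match lay in 9 of 10 replication members (90.0%), in 1 of 17 G2-M and spindle members (5.88%) and in 3.99% of all genes. A CCAAT match lay in 15 of 17 G2-M and spindle members (88.2%), in 7 of 10 replication members (70.0%) and in 39.7% of all genes. In 2 of the members' 60 windows, matches of 2 different motifs shared bases. A match is a description of the letters and does not show binding.

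Stretches of 170 bases with no exon in GENCODE 29 are printed for 3 members with a CHR match and for 3 with an E2F match, each 5′ to 3′ on the gene's strand. Capitals mark the matches on either strand, so that ATTGG stands for CCAAT, while TTCAAA stands for TTTGAA and GCGCGAAA for TTTCGCGC.
MKI67, chr10:128126424-128126593, minus strand: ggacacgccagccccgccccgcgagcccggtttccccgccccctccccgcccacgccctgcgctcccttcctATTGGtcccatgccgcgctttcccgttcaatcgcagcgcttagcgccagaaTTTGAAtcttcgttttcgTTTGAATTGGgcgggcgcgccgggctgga
KIF11, chr10:92592960-92593129, plus strand: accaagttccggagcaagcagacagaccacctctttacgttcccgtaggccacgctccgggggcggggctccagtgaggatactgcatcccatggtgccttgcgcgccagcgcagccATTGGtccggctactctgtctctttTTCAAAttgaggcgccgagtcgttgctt
CDK1, chr10:60778161-60778330, plus strand: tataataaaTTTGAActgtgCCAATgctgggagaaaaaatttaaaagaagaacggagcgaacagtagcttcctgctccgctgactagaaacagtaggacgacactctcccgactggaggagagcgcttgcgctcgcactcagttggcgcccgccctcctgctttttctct
MCM6, chr2:135876444-135876613, minus strand: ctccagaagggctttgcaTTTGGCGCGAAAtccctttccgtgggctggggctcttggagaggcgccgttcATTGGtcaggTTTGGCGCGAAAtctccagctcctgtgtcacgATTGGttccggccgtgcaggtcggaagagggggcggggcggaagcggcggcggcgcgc
CDC25A, chr3:48188418-48188587, minus strand: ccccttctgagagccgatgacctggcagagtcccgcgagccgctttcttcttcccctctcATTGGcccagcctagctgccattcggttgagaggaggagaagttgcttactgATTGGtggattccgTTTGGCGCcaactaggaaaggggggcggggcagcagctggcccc
E2F2, chr1:23531234-23531403, minus strand: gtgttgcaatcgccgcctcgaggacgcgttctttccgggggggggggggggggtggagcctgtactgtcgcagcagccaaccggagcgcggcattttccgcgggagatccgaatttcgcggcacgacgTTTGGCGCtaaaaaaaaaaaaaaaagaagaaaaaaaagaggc
MKI67 carried 2 CHR matches, the second sharing bases with a match of the CCAAT box. The printed stretches of KIF11 and CDK1 each held 1 of both. A second CDK1 window, not printed, held an E2F match too, which made CDK1 the 1 G2-M or spindle member with one. The stretch of MCM6 held 4 E2F matches that overlap in pairs on the 2 strands.

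**Figure D1:**
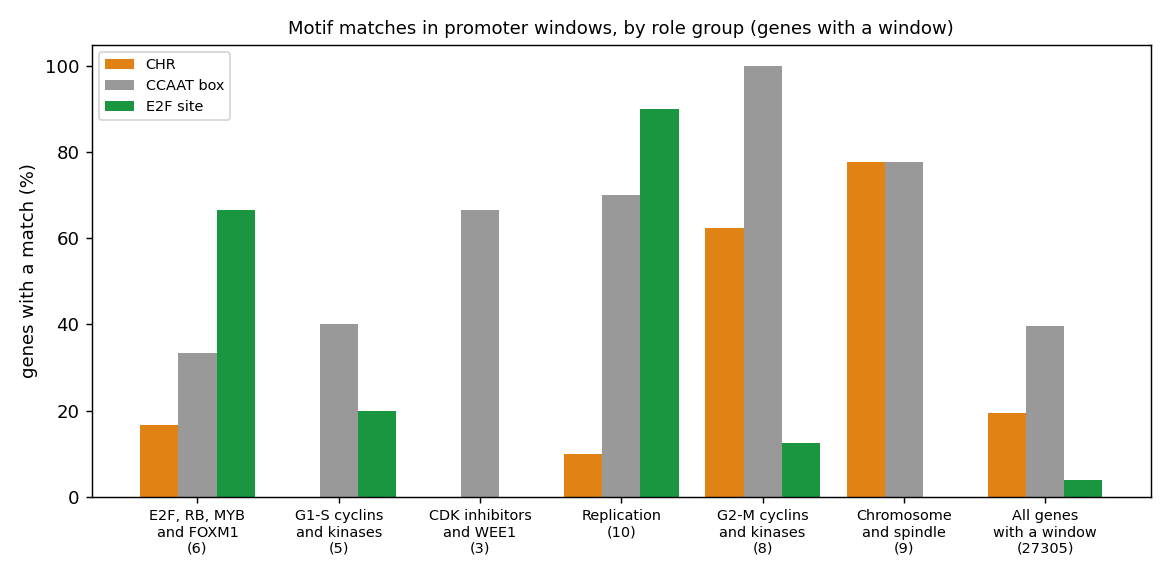
Share of genes (%) with at least 1 match of each motif in a promoter window, for the 6 role groups and for all 27305 genes with a window; the number of genes is in parentheses. CHR matches stand highest in the G2-M and spindle groups, at 62.5% and 77.8%, and E2F matches in the replication group, at 90.0%.

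Most members that passed the test were lower with SAR, among them 9 genes of G2 and mitosis, and the helicase and its loading factors did not pass. Of the 52 members, all of which were tested, 1 rose (CDKN1C) and 18 fell, against 13.8% of all tested genes that rose and 15.5% that fell. By limma 0 of the 52 passed with a change over 2-fold, against 2.46% of all tested genes higher and 2.21% lower, and the log2 fold changes ran from -0.70 to 0.58. At an unadjusted p under 0.05, 4 members were higher and 23 lower, against 3374 and 3608 of all 16371 tested genes. By limma-voom on recovered read counts 0 members were also called over 2-fold, against 895 of 16370 genes. The median was -0.12, with 38 of the 52 below 0. All SAR libraries lay below all control libraries for 23 members and above them for 4, against 24.2% and 23.7% of all tested genes. In the FPKM as deposited, 3 members rose and 13 fell, against 23.7% and 9.55% of all tested genes, and the median was 0.00. In bulk RNA, fewer cells in a phase of the cycle and less RNA per cell cannot be told apart.

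**Figure D2:**
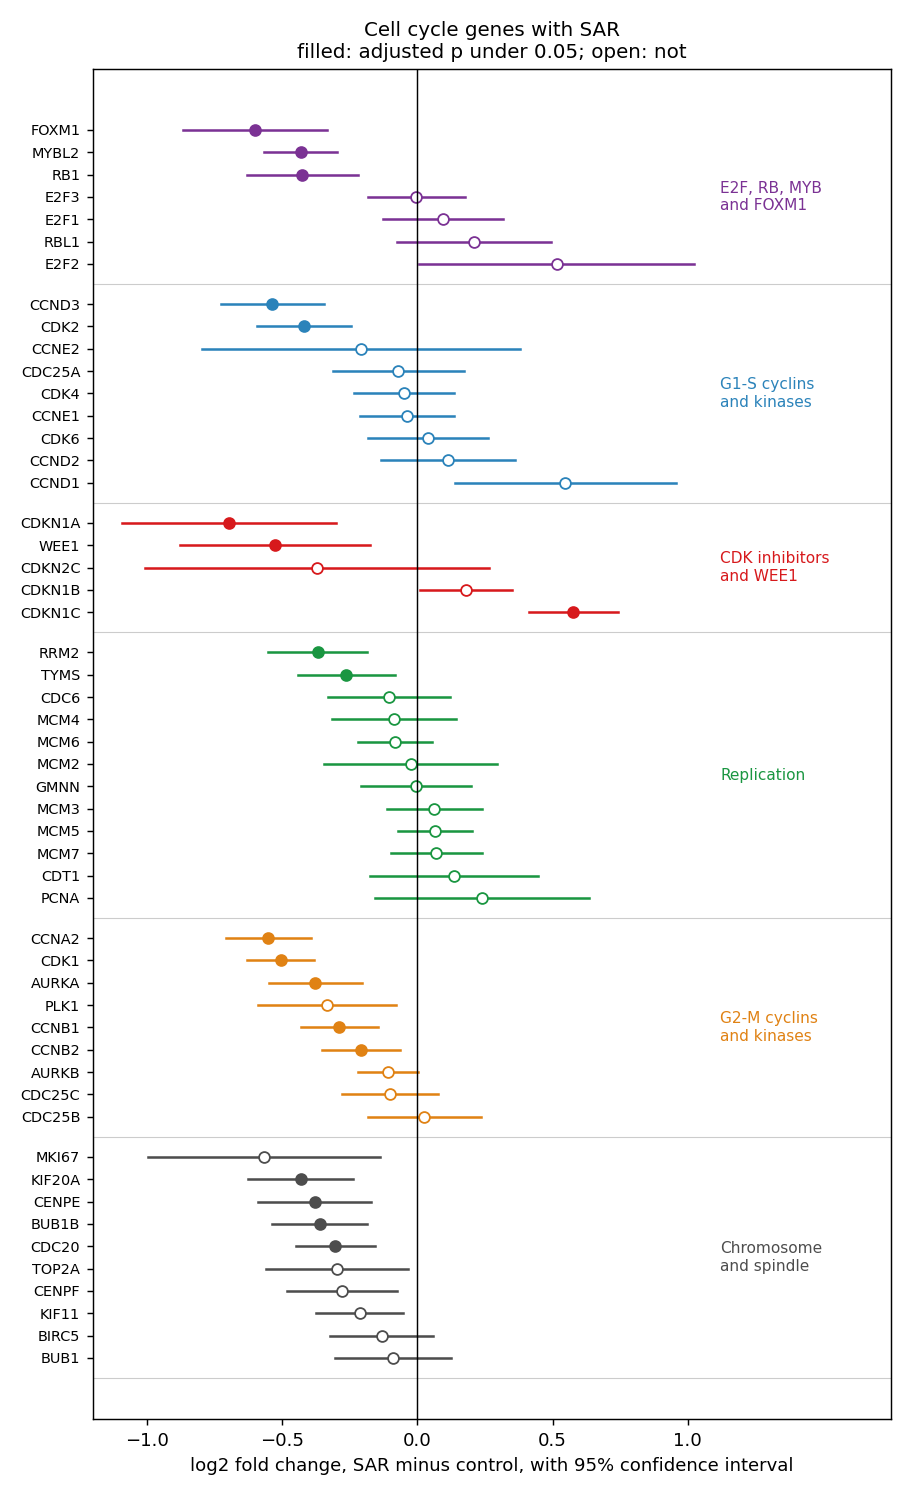
Log2 fold change (SAR minus control) of the 52 members with 95% confidence intervals from limma, by role group; filled points passed at an adjusted p under 0.05 and open points did not. The filled points lie below 0 except CDKN1C, at 0.58, and the replication group is centred near 0.

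The transcription factors split. FOXM1, MYBL2 and RB1 fell, and the 3 E2F factors and RBL1 did not pass the test. The group thus had 3 of 7 lower (42.9%, against 15.5% of all tested genes) and a median of -0.00 (0.12 as deposited). FOXM1 (ENSG00000111206, chr12:2857681-2877155 on GRCh38), the forkhead factor of G2-M genes, was at 11.1, 13.2 and 13.03 FPKM in control replicates 1, 2 and 3 and at 6.998, 8.86 and 8.65 FPKM with SAR. Its log2 fold change was -0.60 ± 0.11 (SE, adjusted p = 0.0097), and 15.9% of its exon bases lie opposite another gene. MYBL2 (ENSG00000101057, chr20:43667019-43716496), the MYB factor that acts with the MuvB complex at CHR elements, was at 66.2, 69.2 and 67.6 FPKM in control and 47.4, 50.6 and 52.6 FPKM with SAR. The groups did not overlap, and the change was -0.43 ± 0.06 (adjusted p = 0.0030).

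RB1, the retinoblastoma protein that holds E2F factors back, was at 3.81, 3.89 and 4.21 FPKM in control and 2.66, 3.05 and 3.09 FPKM with SAR. Its change was -0.43 ± 0.09 (adjusted p = 0.0130), and without control replicate 3 it no longer passed (-0.39, adjusted p = 0.0562). E2F1 and E2F3, activators of replication genes, gave 0.09 ± 0.09 and -0.00 ± 0.08, and RBL1, a relative of RB1, gave 0.21 ± 0.12. E2F2, the least abundant of the 3 activators, was at 0.437 to 0.526 FPKM in control and 0.622 to 0.809 FPKM with SAR. The groups did not overlap, and its change of 0.51 ± 0.22 did not pass (adjusted p = 0.114). Its control mean, 0.467 FPKM, lay under the minimum of 0.5 FPKM, which E2F2 reached through the SAR libraries.

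Among the genes of the G1-S transition, CCND3 and CDK2 fell (22.2%, against 15.5% of all tested genes) and the other 7 of 9 did not pass. The median was -0.05 (0.07 as deposited). Of the 3 D cyclins, which bind CDK4 and CDK6 in G1, 1 passed the test. CCND3 was at 4.90, 4.96 and 4.98 FPKM in control and 3.48, 3.05 and 3.63 FPKM with SAR, a change of -0.54 ± 0.08 (adjusted p = 0.0046). CCND1 was at 7.68, 4.76 and 6.82 FPKM in control and 8.40, 10.1 and 9.28 FPKM with SAR. Its SAR libraries were all above its control libraries, and its change of 0.55 ± 0.17 just missed the test (adjusted p = 0.0524). It passed in 7 of 17 alternatives, among them the FPKM as deposited (0.67) and the fit without control replicate 1 (0.69, adjusted p = 0.0333). Without control replicate 2, its lowest library, CCND1 gave 0.35 (adjusted p = 0.0678). CCND2 was at 10.6, 10.5 and 9.53 FPKM in control and 10.1, 10.3 and 12.9 FPKM with SAR, with overlapping groups and a change of 0.11 ± 0.10.

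CDK2, the partner of cyclin E, was at 12.3, 14.3 and 13.7 FPKM in control and 10.3, 10.0 and 9.68 FPKM with SAR. Its change was -0.42 ± 0.07 (adjusted p = 0.0078), and 16.8% of its exon bases lie opposite another gene. CDK4 and CDK6 gave -0.05 ± 0.08 and 0.04 ± 0.09, and their 95% intervals ran from -0.23 to 0.14 and from -0.18 to 0.26. For the cyclins E, CCNE1 gave -0.04 ± 0.07 and CCNE2 -0.21 ± 0.25, the latter at under 1 FPKM in every library. CDC25A, the phosphatase that activates CDK2, gave -0.07 ± 0.10.

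The inhibitors moved apart. CDKN1C rose, CDKN1A and WEE1 fell, and CDKN1B and CDKN2C did not pass. CDKN1C (p57, ENSG00000129757, chr11:2883213-2885773) was at 17.4, 16.9 and 15.6 FPKM in control and 26.6, 23.6 and 24.5 FPKM with SAR, a change of 0.58 ± 0.07 (adjusted p = 0.0022). It was the 1 member that rose, and it passed in the same direction under every alternative. CDKN1A (p21, ENSG00000124762, chr6:36676460-36687339), a target of p53, was at 8.87, 5.60 and 7.39 FPKM in control and 3.94, 4.36 and 4.89 FPKM with SAR. The change was -0.70 ± 0.17 (adjusted p = 0.0224), and the groups did not overlap. CDKN1A lost the call without control replicate 3 (-0.68), SAR replicate 1 (-0.62) or SAR replicate 2 (-0.69), at adjusted p-values of 0.0659 to 0.0719. The call was also lost without the filter on low values.

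CDKN1B (p27) was at 6.24, 6.86 and 6.25 FPKM in control and 7.76, 7.26 and 6.94 FPKM with SAR. Its groups did not overlap, and its change of 0.18 ± 0.07 did not pass (adjusted p = 0.103). CDKN2C (p18) was at 0.823, 1.05 and 0.878 FPKM in control and 0.877, 0.825 and 0.431 FPKM with SAR, a change of -0.37 ± 0.27 that was -0.09 without SAR replicate 3. WEE1, the kinase that holds CDK1 inactive, was at 29.5, 20.1 and 26.2 FPKM in control and 15.3, 19.0 and 17.8 FPKM with SAR. Its change was -0.53 ± 0.15 (adjusted p = 0.0374), and it passed in 6 of 17 alternatives. With 1 library left out it passed only without control replicate 2 (-0.68), and the others gave -0.59 to -0.41.

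**Figure D3:**
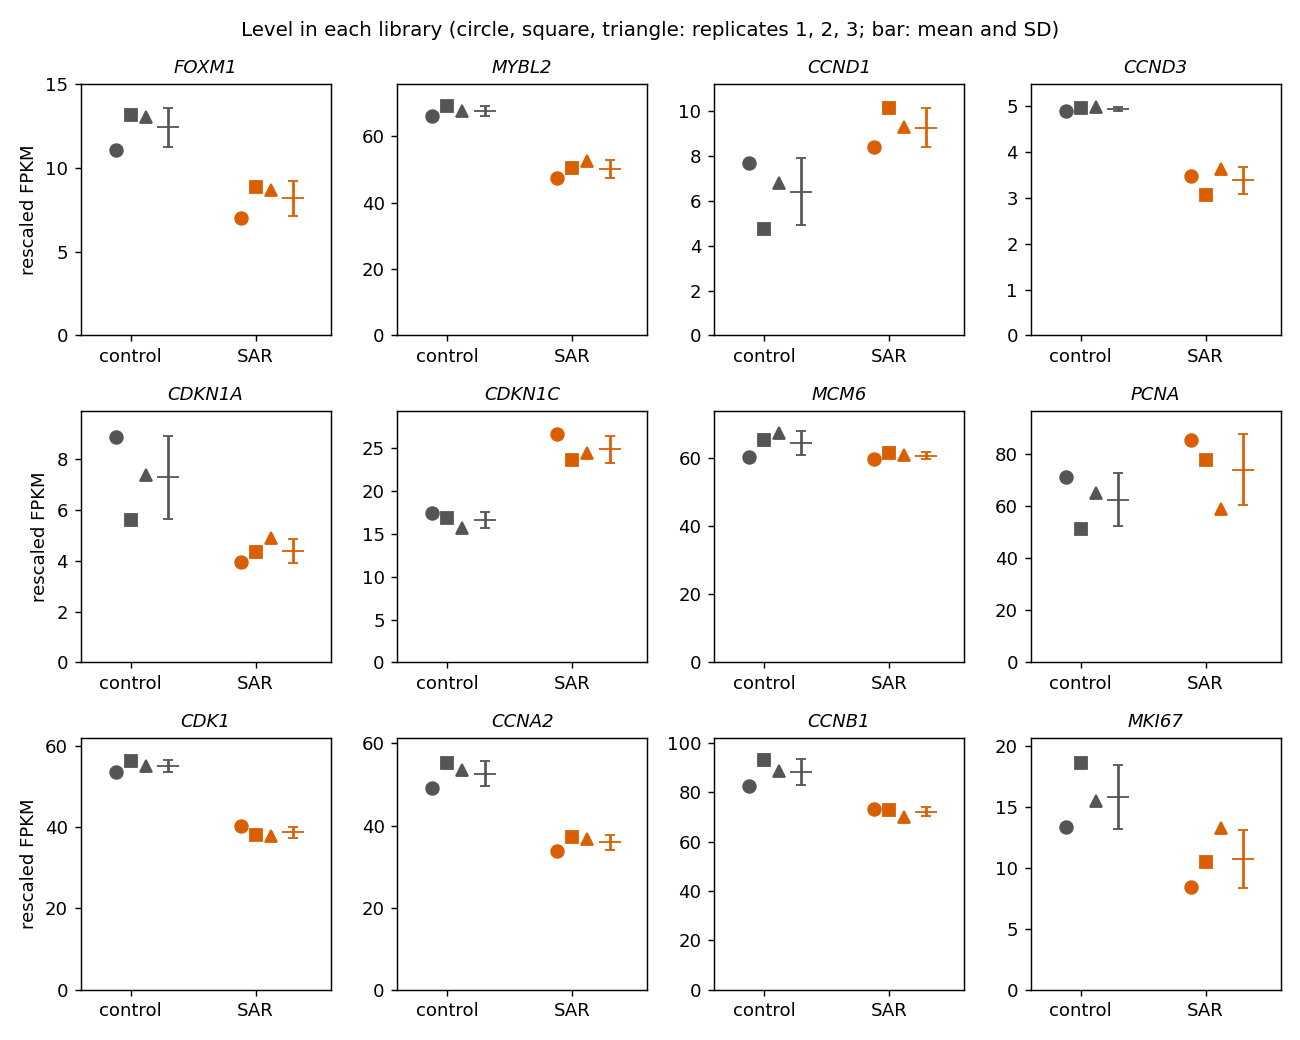
Rescaled FPKM of 12 members in each library (circles, squares and triangles are replicates 1, 2 and 3; the bar is the mean with its SD, n = 3). FOXM1, MYBL2, CCND3, CDKN1A, CDK1, CCNA2, CCNB1 and MKI67 lie lower in the SAR libraries, CDKN1C and CCND1 higher, and MCM6 and PCNA overlap.

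Of the 12 replication members, 2 fell (16.7%, against 15.5% of all tested genes) and 10 did not pass, and the median was -0.01 (0.11 as deposited). The 6 subunits of the MCM2-7 helicase, which opens DNA at origins, lay between -0.09 (MCM4) and 0.07 (MCM7). Their 95% intervals ran from -0.35 to 0.29 at the widest (MCM2) and from -0.07 to 0.20 at the narrowest (MCM5). Of the factors that load it, CDC6 gave -0.11 ± 0.10 and CDT1 0.14 ± 0.13, and GMNN, the inhibitor of CDT1, gave -0.00 ± 0.09. PCNA, the sliding clamp of DNA polymerase, was at 71.0, 51.1 and 64.8 FPKM in control and 85.3, 77.4 and 58.8 FPKM with SAR. The groups overlapped, and its change was 0.24 ± 0.17 (adjusted p = 0.312, 95% interval -0.16 to 0.64).

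The 2 genes that fell make nucleotides. RRM2, a subunit of ribonucleotide reductase, was at 9.03, 8.42 and 9.15 FPKM in control and 6.86, 7.39 and 6.30 FPKM with SAR, a change of -0.37 ± 0.08 (adjusted p = 0.0141, and 0.0616 without control replicate 3). TYMS, thymidylate synthase, was at 8.67, 9.79 and 10.3 FPKM in control and 7.80, 8.11 and 7.96 FPKM with SAR, a change of -0.26 ± 0.08 (adjusted p = 0.0409). TYMS passed in 7 of 17 alternatives and, with 1 library left out, only without control replicate 1 (-0.33, otherwise -0.27 to -0.21), and 46.6% of its exon bases lie opposite another gene. As deposited, 0 of the 12 replication members passed in either direction by limma.

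Of the 19 members of the G2-M and the chromosome and spindle groups, 9 fell and 0 rose by limma (14 and 0 at an unadjusted p under 0.05), with a median of -0.30 (-0.17 as deposited). For 14 of the 19, all SAR libraries lay below all control libraries, against 24.2% of all tested genes. Of all 16371 tested genes 15.5% fell, and 3608 were lower at an unadjusted p under 0.05. The other 33 members had 9 lower, 1 higher and a median of -0.04, and the difference between the 2 sets was not tested.

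CDK1 (ENSG00000170312, chr10:60778331-60794852), the kinase that drives entry into mitosis, was at 53.6, 56.4 and 55.0 FPKM in control and 40.4, 38.0 and 37.8 FPKM with SAR. The groups lay well apart, and the change was -0.51 ± 0.05 (adjusted p = 0.0013). CCNA2 (ENSG00000145386, chr4:121816444-121823933), the cyclin of S phase and G2, was at 49.2, 55.2 and 53.4 FPKM in control and 33.8, 37.1 and 36.7 FPKM with SAR, a change of -0.55 ± 0.07 (adjusted p = 0.0022). Both passed under every alternative.

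The B cyclins, the mitotic partners of CDK1, also fell. CCNB1 was at 82.7, 92.9 and 88.7 FPKM in control and 73.2, 72.9 and 70.0 FPKM with SAR, a change of -0.29 ± 0.06 (adjusted p = 0.0136, and 0.0623 without control replicate 3). CCNB2 was at 39.8, 43.4 and 39.8 FPKM in control and 34.8, 34.4 and 37.2 FPKM with SAR, a change of -0.21 ± 0.06 (adjusted p = 0.0408) that passed in 7 of 17 alternatives and, with 1 library left out, only without SAR replicate 3 (-0.24, otherwise -0.23 to -0.17). AURKA, the kinase of the spindle poles, was at 30.7, 36.2 and 33.5 FPKM in control and 25.9, 26.6 and 24.6 FPKM with SAR, a change of -0.38 ± 0.07 (adjusted p = 0.0107). The groups of all 3 genes did not overlap. The mitotic kinase PLK1 gave -0.33 ± 0.11 (adjusted p = 0.0569) and AURKB, the kinase of the centromere, -0.11 ± 0.05 (adjusted p = 0.128). The phosphatases that activate CDK1, CDC25B and CDC25C, gave 0.03 ± 0.09 and -0.10 ± 0.07.

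Of the 10 chromosome and spindle members, 4 fell (40.0%, against 15.5% of all tested genes). All 10 had a log2 fold change below 0 after rescaling, of which BUB1 was above 0 as deposited (0.03) and under quantile normalization. KIF20A, a kinesin of the central spindle, was at 27.3, 30.2 and 27.2 FPKM in control and 19.7, 19.97 and 23.2 FPKM with SAR, a change of -0.43 ± 0.08 (adjusted p = 0.0101). CENPE, a kinesin of the kinetochore, was at 6.97, 7.71 and 7.51 FPKM in control and 5.40, 5.28 and 6.35 FPKM with SAR, a change of -0.38 ± 0.09 (adjusted p = 0.0201). Without control replicate 2 or 3 or SAR replicate 1 or 2, CENPE gave -0.37 to -0.33 and adjusted p-values of 0.0624 to 0.0728. The next 2 act in the spindle checkpoint. BUB1B was at 20.3, 19.5 and 20.5 FPKM in control and 14.2, 16.01 and 16.8 FPKM with SAR, a change of -0.36 ± 0.07 (adjusted p = 0.0129, and 0.0546 without control replicate 3). CDC20, which activates the anaphase-promoting complex, was at 73.0, 81.3 and 75.3 FPKM in control and 59.7, 61.5 and 64.7 FPKM with SAR, a change of -0.30 ± 0.06 (adjusted p = 0.0129).

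MKI67 (ENSG00000148773, chr10:128096659-128126385), whose protein coats mitotic chromosomes and marks cycling cells, was at 13.4, 18.6 and 15.5 FPKM in control and 8.45, 10.5 and 13.3 FPKM with SAR. Its highest SAR library reached just under its lowest control library, and its change of -0.57 ± 0.18 missed the test (adjusted p = 0.0544). TOP2A, the topoisomerase that untangles chromosomes, was at 73.8, 90.8 and 85.0 FPKM in control and 60.9, 65.3 and 77.2 FPKM with SAR. Its groups overlapped, and its change was -0.30 ± 0.11 (adjusted p = 0.0838). The kinetochore protein CENPF gave -0.28 ± 0.09 (adjusted p = 0.0505) and the spindle kinesin KIF11 -0.21 ± 0.07 (adjusted p = 0.0539). BUB1, of the spindle checkpoint, and BIRC5 (survivin), of the centromere complex of AURKB, gave -0.09 ± 0.09 and -0.13 ± 0.08.

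In these groups SAR replicate 3 lay nearest to the control libraries. Relative to the control mean, the chromosome and spindle group had a median of -0.42 in SAR replicate 1, -0.33 in replicate 2 and -0.19 in replicate 3, and of -0.09, 0.09 and 0.02 in control. That of the G2-M group was -0.27, -0.27 and -0.15 with SAR and -0.09, 0.08 and 0.00 in control. Without SAR replicate 3, MKI67 (-0.73), TOP2A (-0.39), CENPF (-0.37), KIF11 (-0.24) and the G2-M kinase PLK1 (-0.42) passed, and 8 of the 10 chromosome and spindle members fell. Without control replicate 3, it was 2 of the 10, KIF20A and CDC20, and 9 of all 52 members. The number of all tested genes that fell also moved with the library left out, over the range given in the last section. Whether the spindle group moved more than all genes was not tested. KIF11 also passed without control replicate 1 (-0.27).

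**Figure D4:**
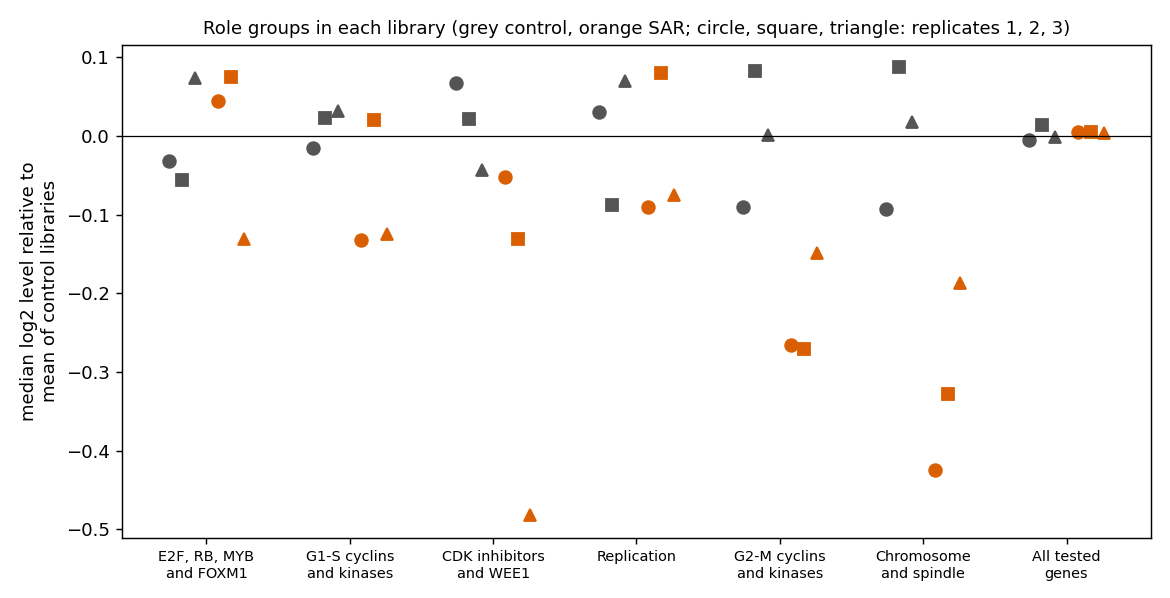
Median log2 level of each role group in each library relative to the mean of the control libraries (grey control, orange SAR). In the G2-M and spindle groups the 3 SAR medians lie below the 3 control medians, and in the replication group, at -0.09 to 0.08, they overlap.

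Gene length and base composition moved with the fold change over all genes. Among tested protein-coding genes the median log2 fold change was 0.13 in the shortest eighth and -0.12 in the longest, and -0.10 in the eighth with the lowest GC content and 0.17 in the highest. The median GC content was 45.3% for the G2-M and spindle members, 50.0% for the replication members and 48.8% for all tested genes. The median length was 2928 bases for the G2-M group, 5813 for the chromosome and spindle group and 4236 for all tested genes. In the longest eighth, SAR replicates 1, 2 and 3 had medians of -0.17, -0.13 and -0.06 relative to the control mean. Those of control were -0.04, 0.04 and 0.01. The part of length in the order of the SAR libraries in the spindle group was not tested. With both trends subtracted from each library, a step chosen after the trends had been seen, 7 of 9 G2-M members fell (median -0.36) and 4 of 10 chromosome and spindle members (median -0.21), against 15.5% of all tested genes. The G2-M genes PLK1 (-0.41) and AURKB (-0.28) then passed, while RRM2 (adjusted p = 0.0545) and WEE1 (adjusted p = 0.106) no longer did. In the spindle group the change became smaller for MKI67 (-0.47), BUB1B (-0.34), CENPE (-0.22), TOP2A (-0.19), CENPF (-0.13), KIF11 (-0.13) and BUB1 (-0.01). It became larger for CDC20 (-0.49), KIF20A (-0.47) and BIRC5 (-0.19). Of the replication members, 1 of 12 fell, with a median of -0.05. CDKN1C then gave 0.33 and CDKN1A -0.86, and both passed. CDKN1B, which had not passed before, now passed as higher (0.26, adjusted p = 0.0474).

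Genes of the same pathways that are not members were taken in 6 lists. Of all 16371 tested genes 13.8% rose and 15.5% fell, and at an unadjusted p under 0.05, 3374 were higher and 3608 lower. Of 66 tested genes of mitosis, 33 fell and 0 rose by limma (42 and 1 at an unadjusted p under 0.05), with a median of -0.29, and with both trends subtracted 33 fell with a median of -0.25. MAD1L1, PRC1 and NUSAP1 averaged under 0.5 FPKM as deposited and were left out of the fit. Whether these 3 lost reads to overlapping genes was not tested. The lowest of the mitosis genes by the rule for named genes were SMC4 (condensin, -0.62 ± 0.10), CEP55 (abscission, -0.60 ± 0.12) and KNL1 (kinetochore scaffold, -0.58 ± 0.14). Of 45 further replication genes, 4 rose and 4 fell (8.89% each, under the shares of all tested genes), and the median was -0.05 (0.07 as deposited). ORC2 (origin recognition, -0.38 ± 0.07), RFC3 (clamp loader, -0.37 ± 0.10) and RRM1 (ribonucleotide reductase, -0.33 ± 0.07) fell, and RPA2 (single-strand binding, 0.45 ± 0.06), CDC7 (origin-firing kinase, 0.40 ± 0.06) and GINS3 (helicase cofactor, 0.59 ± 0.18) rose.

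The E2F and DREAM list had 1 of 14 higher, TFDP2 (an E2F partner, 0.59 ± 0.07), and 1 lower, RBL2 (p130, -0.45 ± 0.10). Each is 7.14% of that list, under the shares of all tested genes that rose (13.8%) and fell (15.5%). Of 21 genes of the ubiquitin ligases APC/C and SCF, 3 rose (14.3%) and 4 fell (19.0%), near the shares of all tested genes. The median was -0.00 (0.12 as deposited). FBXO5 (EMI1, the inhibitor of APC/C) fell by 0.71 on the log2 scale, from 18.4, 21.2 and 20.5 FPKM in control to 12.6, 12.7 and 11.3 FPKM with SAR. ANAPC1 (-0.48 ± 0.13) and SKP2 (-0.32 ± 0.07) also fell, and the APC/C subunits ANAPC4 (0.45 ± 0.07), ANAPC16 (0.24 ± 0.06) and CDC16 (0.22 ± 0.06) rose. Of 10 other cyclins, kinases and inhibitors tested, 4 fell, among them the inhibitor CDKN2D (p19, -0.61 ± 0.08), MNAT1 of the CDK-activating kinase (-0.56 ± 0.06) and cyclin G2 (CCNG2, -0.33 ± 0.09).

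Of 22 tested target genes of p53, the class to which CDKN1A belongs, 7 fell (31.8%) and 1 rose (4.55%), with a median of -0.19. Of all tested genes 15.5% fell and 13.8% rose. PLK2, a kinase of the polo family, was at 18.5, 13.6 and 15.4 FPKM in control and 6.68, 6.88 and 6.17 FPKM with SAR. Its change of -1.24 ± 0.11 (adjusted p = 0.0009) was the 1 change over 2-fold that limma called among the 178 related genes tested, and limma-voom called 2, the other being the CDK inhibitor CDKN2B, named after its values were seen. PLK3 (-0.90 ± 0.14) and the stress gene GADD45A (-0.72 ± 0.07) also fell, and BTG2, an antiproliferative gene, rose by 0.26 ± 0.07.

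**Figure D5:**
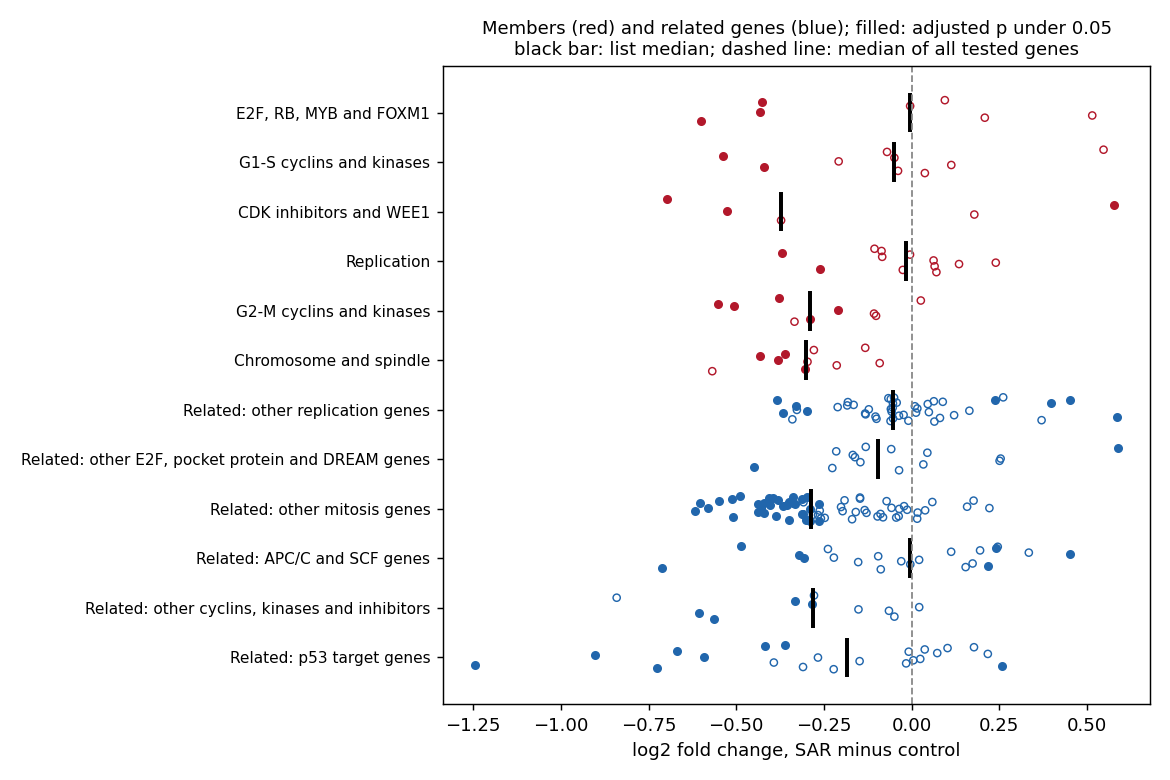
Log2 fold change (SAR minus control) of each member (red) and related gene (blue) by list; filled points passed at an adjusted p under 0.05, black bars are list medians and the dashed line is the median of all tested genes. The G2-M, spindle and other mitosis lists centre at -0.29, -0.30 and -0.29, and both replication lists near 0.

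For MKI67, the 5 genes outside the list with the most alike pattern over the 6 libraries, among the 7026 that averaged 5 FPKM or more, were MTOR, GATAD2B, CABIN1, GMCL1 and PRPF8. Their Pearson correlations with MKI67 were 0.994 to 0.997, over libraries that share 1 contrast and differ in depth. Their log2 fold changes ran from -0.45 (PRPF8) to -0.15 (MTOR), each nearer to 0 than that of MKI67. At 12845 bases MKI67 lies in the longest eighth of genes, and the part of gene length in these correlations was not tested.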

How the data were processed

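RNA-seq of 3 control and 3 SAR libraries of H1 cells was analysed, grouped by the sample labels. The submitters' processing notes name HISAT2, Subread, featureCounts and DESeq2 and the build GRCh38.p13, and the annotation release and strand setting are not given in the sources used here. The authors deposited FPKM for 40396 genes, 1 column per library, with reads divided by gene length and library total. Overlapping and antisense genes can therefore share or lose reads.

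FPKM were rescaled by median ratios (factors 0.941 to 1.05) and tested with limma 3.58.1 in R 4.3.3 (eBayes with an intensity trend, two-sided, Benjamini-Hochberg) on log2(FPKM + 0.1), for genes that averaged 0.5 FPKM or more, since FPKM are not counts. The 0.1 added before taking log2 understates changes of low genes. Calls used an adjusted p under 0.05, alone or with a log2 fold change beyond 1. Library totals and read counts were recovered from the FPKM steps and GENCODE 29 exon lengths, to within 0.01 reads; of the genes in GENCODE 29, 59.2% had the length of the exon union, and 9 of the 52 members did. They serve for depth and for voom. Positions are those of GENCODE 29 on GRCh38, and exon overlap was measured there.

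The members and lists were chosen with earlier results of these data known. Full values are given for members that passed, the D cyclins, the CDK inhibitors, MKI67, PCNA, TOP2A, CCNB1 and CDK1. Of each related list, up to 3 lowest and 3 highest genes were named among those that passed without overlap of the groups. On simulated data for SAR against control (16371 genes), 37 of 100 genes with a log2 fold change of 0.4 and 89 of 100 with 1 were recovered, and 3 unchanged genes were called. Only these genes were changed there, whereas 2259 rose and 2538 fell in the data. The adjustment was therefore stricter in the simulation, and its shares recovered are not those of the real comparison. Alternatives were other scalings, pseudocounts (1 and 0.01) and filters, no trend, a replicate block, a fit of protein-coding genes alone, voom, each library left out, and, added after the data had been seen, subtraction of length and GC trends. Python 3.11.15, pandas 2.3.3 and matplotlib 3.10.9 were used.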

Additional observations from a re-analysis of the deposited data

How the results depend on the processing

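Of the 19 members that passed, all 19 kept their sign under the 17 alternatives and 10 passed under each, and 9 of the other 33 passed under at least 1. In the FPKM as deposited, 3885 genes rose and 1563 fell, and 3 members rose. The median of the members was then 0.00, of the E2F and RB group 0.12, G1-S 0.07, replication 0.11, G2-M -0.17, spindle -0.18, other replication 0.07, E2F and DREAM 0.02, other mitosis -0.16, APC/C and SCF 0.12, other cyclins -0.16 and p53 targets -0.07. Lower genes then numbered 1 inhibitor, 0 replication members, 2 other replication, 20 other mitosis and 1 of APC/C and SCF. Under quantile normalization 2 members rose, 1 inhibitor and 1 replication member fell, and medians were -0.05 (members), 0.03 (G1-S), -0.18 (G2-M), 0.02 (other replication), -0.22 (other mitosis), 0.09 (APC/C and SCF) and -0.23 (other cyclins). With a pseudocount of 1, 133 genes rose and 181 fell over 2-fold, 2 members rose, and medians were -0.17 (inhibitors), -0.22 (other cyclins) and -0.13 (p53 targets). Without a filter 1502 genes rose, and 0 inhibitors and 1 replication member fell. With a minimum mean of 1 FPKM 2 members rose, and medians were -0.20 (E2F and RB), -0.16 (inhibitors) and -0.07 (p53 targets). Without a trend 2 members rose, and 1 inhibitor and 1 replication member fell. Among protein-coding genes alone 166 fell over 2-fold, 3 members rose and 8 spindle members fell. By voom 3 members rose and 8 spindle members fell. With length and GC trends removed, an alternative chosen after seeing the data, 2 members rose, and 1 inhibitor, 1 replication member, 2 of E2F and DREAM and 2 of APC/C and SCF fell, with medians of -0.14 (E2F and RB), -0.15 (G1-S) and -0.36 (other cyclins).

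With the replicate number as a block, 1926 genes rose and 2296 fell, and of the members 1 rose and 18 fell, with 1 inhibitor and 1 replication member lower. Deviations of same-numbered libraries correlated at 0.07, 0.00 and 0.02, so the numbers were not taken as pairs. Control replicates 1 and 3 correlated best with the SAR library of the same number and control replicate 2 with SAR replicate 3.

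Leaving out 1 library gave 1143 to 2282 genes higher and 1295 to 2630 lower. Members higher numbered 1 to 2 and lower 9 (without control replicate 3) to 21, with medians of -0.18 to -0.09. Lower genes numbered 0 to 2 inhibitors, 0 to 2 replication members, 3 to 6 G2-M, 2 to 8 spindle, 1 to 4 other replication, 0 to 2 E2F and DREAM, 16 to 36 other mitosis and 1 to 5 APC/C and SCF. Medians ran from -0.13 to -0.01 (G1-S), -0.49 to -0.09 (inhibitors), -0.07 to 0.01 (other replication), -0.15 to -0.02 (E2F and DREAM), -0.06 to 0.03 (APC/C and SCF) and -0.29 to -0.23 (other cyclins).

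Signs turned for members that had not passed. As deposited and under quantile normalization these were AURKB (0.02, 0.01), BUB1 (0.03, 0.02), CCNE1 (0.08, 0.04), CDK4 (0.07, 0.03), E2F3 (0.12, 0.04), GMNN (0.12, 0.08), MCM2 (0.10, 0.03), MCM4 (0.04, 0.01) and MCM6 (0.04, 0.03), and as deposited also CDC25A (0.05), CDC25C (0.02) and CDC6 (0.02). With trends removed they were CDC25B (-0.09), CDT1 (-0.14), E2F1 (-0.14), E2F3 (0.04), MCM3 (-0.01) and MCM7 (-0.01). With a minimum of 1 FPKM they were E2F3 (0.01) and GMNN (0.01). With 1 library left out, ranges crossed 0 for E2F3 (-0.04 to 0.06), CCNE1 (-0.07 to 0.03), CDK6 (-0.06 to 0.10), MCM2 (-0.14 to 0.12), MCM3 (-0.00 to 0.10), GMNN (-0.06 to 0.08) and CDC25B (-0.03 to 0.11). Apart from the scaling and the removed libraries, the cause was not tested. With 3 libraries a group, a member that did not pass may still differ. Most changes near 0.4 on the log2 scale were missed in the simulated data. Far fewer genes were changed there than were called here, so that share does not measure what was missed among the members.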
